A study of Homo sapiens with 4 samples.

Results

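The BH3-only genes were followed in A549 cells, a human lung adenocarcinoma line, after treatment with embelin, a benzoquinone from plants of the genus Embelia. BH3-only proteins are the death-inducing branch of the BCL2 family. Each carries a short helix, the BH3 domain, that docks into a groove on the pro-survival members BCL2, BCL-XL and MCL1, and some bind the pore-forming effectors BAX and BAK directly, so that the outer mitochondrial membrane is opened and caspases are activated. The genes are known to be driven by separate stress inputs. Among these are the ATF4 and CHOP arm of the stress response, FOXO factors and hypoxia. Some of the proteins are controlled by cleavage or phosphorylation. The 10 genes followed here were BBC3 (encoding PUMA), PMAIP1 (NOXA), BIK, BCL2L11 (BIM), BMF, HRK, BID, BAD, BNIP3 and BNIP3L, of 30974 genes or transcripts named on the array. Every probe whose name in the files, or whose RefSeq transcript, belonged to one of these genes was taken, which gave 19 probes, and each was read separately.

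The groups compared were 2 control samples (0 µM embelin) and 2 samples given 15 µM embelin for 4 h, all of the same line and all kept for 12 h in medium with 2% serum before treatment, per the study's methods. The labels do not say that replicates came from separate cultures, so the p-values measure the spread between these samples, which may be technical. Each sample was labelled with a single dye and hybridized to 1 whole-genome oligonucleotide array. The signal is given as log2 of the processed intensity after the arrays were set to the same 75th percentile, so a change is relative to the bulk of the probes. The bulk moved by -0.04 in the median log2 fold change over all probes tested. A change in signal cannot tell apart fewer cells carrying a transcript and less transcript per cell. With 2 arrays in each group, the smallest two-sided p of an exact permutation test is 0.333, and p-values are therefore from limma's moderated test, fitted across all 26145 probes that passed the filter on dim signal with Benjamini-Hochberg adjustment over them.

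The 4 arrays lay on 1 slide. On control replicate 1 and embelin replicate 2, 66.7% and 66.4% of probes were well above background, against 50.3% and 51.2% on control replicate 2 and embelin replicate 1, so that 1 array of each group had the noisier background. The control arrays lay at positions 4 and 1 and the embelin arrays at positions 2 and 3, and position and treatment cannot be told apart. All 12 marker genes of A549 cells and lung carcinoma epithelium that were looked up were well above background on every array. None of the 4 endothelial markers and 2 of the 6 leukocyte markers (CD14 and CD68) were, with CD3D and PTPRC below that level. Of the 4 fibroblast markers, ACTA2 and COL1A1 were. COL1A1 had 1 probe called higher with embelin (log2 fold change 1.83, adjusted p = 0.0479 from limma), and the median log2 fold change over the 4 tested probes of COL1A1 and ACTA2 was 1.53. The summed signal of the whole fibroblast list was 1046 and 1242 in the controls and 1291 and 1017 with embelin. What part this had in the values below was not tested.

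The sequences of the probes on which the results turn are shown, some whole and some by their first 30 bases. Composition and marked runs therefore cannot be compared between those printed whole and those printed in part. The G and C contents of the whole BBC3 probes are given further below. BBC3 had 3 probes, of which P90189 and P305312 are given whole and P382775 by its first 30 bases. In these, capitals mark the longest uninterrupted run of G and C in the bases printed.
BBC3 P90189: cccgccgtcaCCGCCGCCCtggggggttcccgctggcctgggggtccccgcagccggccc
BBC3 P305312: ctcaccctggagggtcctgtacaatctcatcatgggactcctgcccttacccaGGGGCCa
BBC3 P382775: agtctgggagtggggagggatGGCCCagcc
The same marking is used for the first 30 bases of the probes of BIK, PMAIP1 and BNIP3, each the only probe of its gene and each past the 2-fold threshold described below.
BIK P404667: ttttCGttttttctaaaagatgaattccta
PMAIP1 P207999: ttagagaatcgttctagtgtttttGCCGaa
BNIP3 P138635: ttctgctgaaGGCacctactcagtatcttt
For HRK, capitals mark the stretch that encodes the core of a BH3 domain, found by a search for leucine, 3 residues of any kind, glycine and aspartate in an open reading frame of the probe.
HRK P52882: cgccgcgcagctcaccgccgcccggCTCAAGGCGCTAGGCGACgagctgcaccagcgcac
This was the only one of the 19 probes with that pattern, which was met in 0.362% of all 50238 probes. Genome positions of the probes were not analysed here.

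After 4 h of embelin, transcripts of BIK, BNIP3, BNIP3L and, at 1 of its 3 probes, BBC3 rose by log2 fold changes of 1.80 to 2.63. PMAIP1 had one of 2.48 and a second BBC3 probe one of 2.24, each with an adjusted p above the threshold. The third BBC3 probe was at -0.11. BMF, BCL2L11, HRK, BID and BAD stayed at log2 fold changes between -0.18 and 0.52 and passed no test. Of the 19 probes 15 passed the filter on dim signal, all of them well above background on all 4 arrays, and they covered the 10 genes. After adjustment 4 of the 10 genes had a probe called higher, against 0.997% of all genes tested, and 0 had a probe called lower, against 0.329%. At a threshold of 2-fold with an unadjusted p under 0.05 by limma, 5 genes were higher, against 5.19%, and 0 were lower, against 4.69%. Counted by probe, 5 of 15 were called higher (0.83% of all probes) and 7 of 15 passed the 2-fold threshold upward (4.58%). The groups did not overlap in 10 of the 15 probes, all higher with embelin, against 49.7% of all probes in either direction. The median log2 fold change over the 15 probes was 0.52. The members were chosen with earlier results of these data known, so the shares over all genes and probes serve as description only. The adjusted calls depended on the setting. Without any 1 of the control or embelin replicates, with dim probes left in, or with the replicate number or the arrays' background as a block, limma called 0 of the 10 genes after adjustment, and the methods' t-test likewise called 0. With the deposited table or with outlier spots kept, limma called 2. In each of these settings 5 genes still passed the 2-fold threshold upward with an unadjusted p under 0.05.

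**Figure D1:**
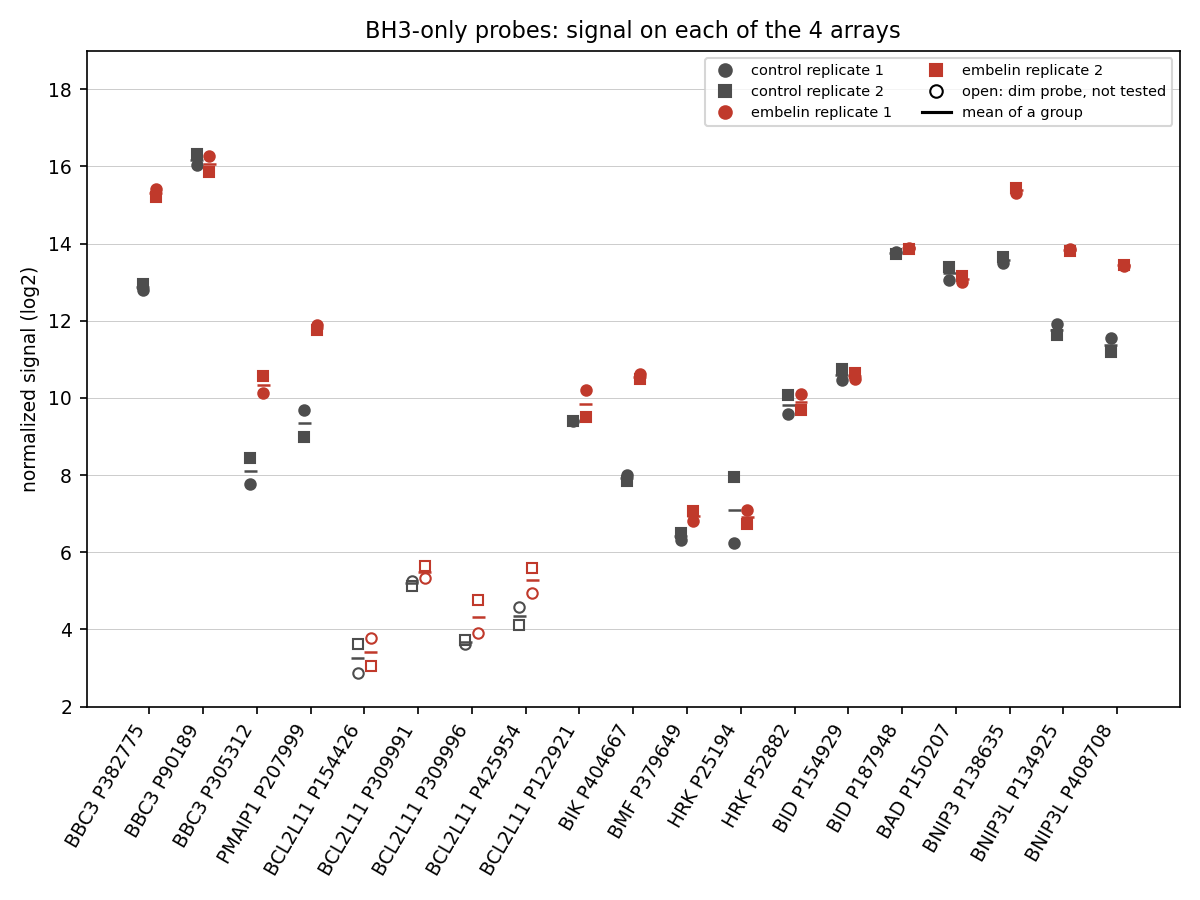
Normalized signal (log2, vertical axis) of all 19 probes of the 10 BH3-only genes on the 4 arrays, controls in grey and embelin in red, circles for replicate 1 and squares for replicate 2, bars for the mean of a group. Open symbols are the 4 dim BCL2L11 probes that were not tested. The embelin arrays lie well above the controls for BIK, PMAIP1, BNIP3, both BNIP3L probes and 2 of the 3 BBC3 probes, and the groups overlap for the third BBC3 probe.

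BIK, whose product sits largely at the endoplasmic reticulum in cells, had the largest fitted change of the 15 probes. This order depended on the setting. With normexp background correction BBC3 P382775 (2.45) and PMAIP1 (2.37) were above BIK (2.36). Without control replicate 1 PMAIP1 (2.83) was above it (2.71), and without control replicate 2 BBC3 P305312 (2.58) was above it (2.56). The single probe of BIK read 7.99 and 7.84 in log2 signal in the controls and 10.61 and 10.49 with embelin. Replicate 1 is given first, here and below. Both embelin arrays lay far above both controls, and within each group the arrays lay close together. The log2 fold change was 2.63 (standard error 0.18, 95% interval 2.14 to 3.13, adjusted p = 0.0285 from limma), a 6.21-fold higher signal.

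PMAIP1 encodes NOXA, a small protein that binds MCL1 in particular and is known to be induced by the ATF4 arm of the stress response. Its probe read 9.69 and 8.99 in the controls and 11.89 and 11.76 with embelin, in log2 signal. The groups lay well apart, but the control arrays differed from each other more than those of BIK did. The log2 fold change of 2.48 was therefore close to that of BIK but with a larger error (standard error 0.30, 95% interval 1.68 to 3.29), and the adjusted p of 0.0548 from limma missed the threshold, while the unadjusted p was 0.000821.

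BBC3 encodes PUMA, which binds all pro-survival members of the family. Its 3 probes did not give the same answer. Probe P382775 read 12.79 and 12.94 in the controls and 15.41 and 15.22 with embelin, and its log2 fold change was 2.45 (standard error 0.19, 95% interval 1.93 to 2.96, adjusted p = 0.0306 from limma). Probe P305312 read 7.76 and 8.44 in the controls and 10.12 and 10.57 with embelin. Its change was of much the same size, at 2.24 on the log2 scale, with a wider spread (standard error 0.33, 95% interval 1.36 to 3.13, adjusted p = 0.0713 from limma). For both of these probes the groups lay clearly apart.

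The third BBC3 probe, P90189, read 16.03 and 16.33 in the controls and 16.28 and 15.86 with embelin. Here the groups overlapped. The log2 fold change was -0.11 (standard error 0.24, adjusted p = 0.876 from limma), and its 95% interval of -0.77 to 0.55 leaves out the changes seen at P382775 and P305312. The difference between the changes was itself tested across the same arrays, each probe against the brightest probe of its gene. For P382775 minus P90189 it was 2.55 on the log2 scale (standard error 0.17, 95% interval 2.07 to 3.04), with the second lowest p among 8493 such pairs in 5768 genes. For P305312 minus P90189 it was 2.35 (standard error 0.37, 95% interval 1.27 to 3.44). After adjustment over all pairs neither passed, with adjusted p = 0.463 and 0.565 from limma, and 0 of the 8493 pairs did, while 510 had an unadjusted p under 0.05. Both BBC3 pairs differed at least 2-fold with an unadjusted p under 0.05, which 2.2% of all pairs did.

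The BBC3 probes also differed in what they are made of, which the choice of members did not use. P90189 had 85% G and C bases, P305312 60% and P382775 55%, and they shared no run of more than 6 bases. They differed in brightness too. The mean signal stood at percentile 99.4 of all probes for P90189, 74.4 for P305312 and 96.9 for P382775. Only 8 tested probes on the array, P90189 included, had at least 85% G and C. Of the 8, 0 passed the 2-fold threshold in either direction, against 8.36% of all tested probes. These 8 probes, P90189 among them, are too few to compare with that share. Over the whole array the share that passed was lower at higher G and C content, though not at every step, from 14.5% of 841 probes under 35% to 1.94% of 155 probes at 75% or more. Whether base composition or brightness had a part in the flat reading of P90189 was not tested.

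**Figure D2:**
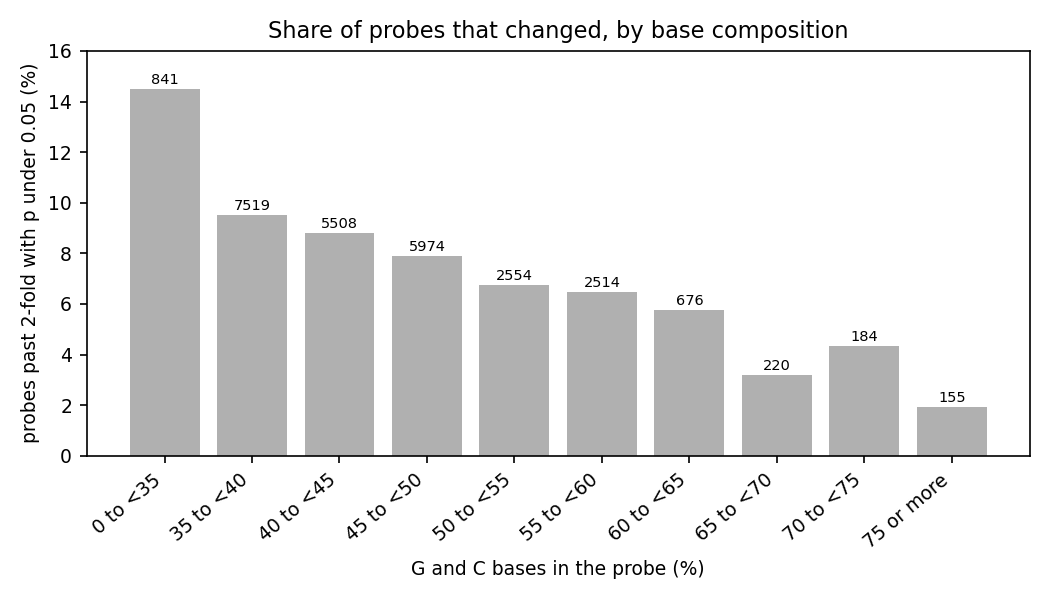
Share of tested probes that changed at least 2-fold with an unadjusted p under 0.05 (vertical axis, in percent) by the G and C content of the probe (horizontal axis, in percent), with the number of probes above each bar. The share goes from 14.5% in the bin under 35% to 1.94% in the bin at 75% or more, where BBC3 P90189 and HRK P52882 lie.

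BNIP3 and BNIP3L encode related proteins of the outer mitochondrial membrane with an atypical BH3 domain. They are best known as receptors that mark mitochondria for removal by autophagy and as genes induced by hypoxia. The BNIP3 probe read 13.50 and 13.66 in the controls and 15.32 and 15.44 with embelin, and its log2 fold change was 1.80 (standard error 0.19, 95% interval 1.30 to 2.30, adjusted p = 0.0465 from limma). It was 3.48-fold higher, and the groups lay far apart.

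BNIP3L had 2 probes, and they gave almost the same change. P134925 read 11.91 and 11.62 in the controls and 13.87 and 13.81 with embelin, and P408708 read 11.55 and 11.18 against 13.43 and 13.45. On both, every embelin value lay above every control value. The log2 fold change was 2.07 at each (standard errors 0.20 and 0.21, adjusted p = 0.0427 and 0.0465 from limma). The 2 changes differed by 0.0031 on the log2 scale, with a 95% interval of -0.40 to 0.40.

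**Figure D3:**
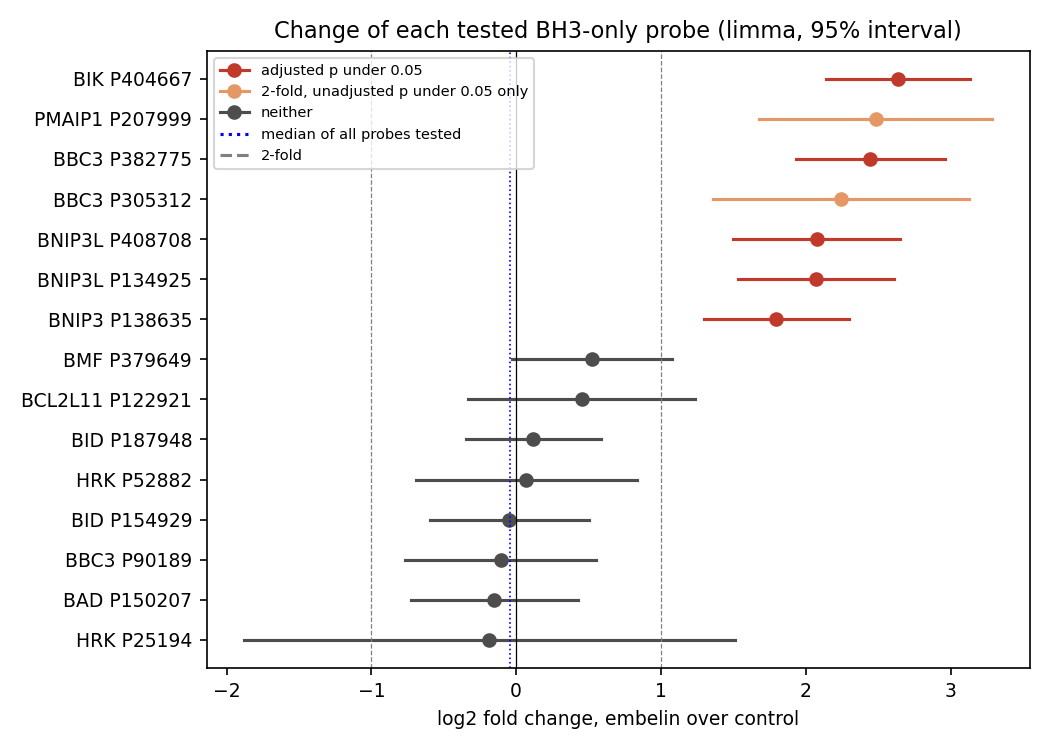
Log2 fold change of embelin over control (horizontal axis) with its 95% interval from limma for each of the 15 tested probes, in order of size. Red marks an adjusted p under 0.05, orange only 2-fold with an unadjusted p under 0.05, grey neither, the dotted line the median of all probes tested (-0.04) and the dashed lines 2-fold. Between 1.80 (BNIP3) and 0.52 (BMF) no probe is found.

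The members that did not pass were those of BCL2L11, BMF, HRK, BID and BAD. BCL2L11 encodes BIM, which binds all pro-survival members and can activate BAX, and is a classical FOXO and CHOP target. Its only tested probe, P122921, read 9.41 and 9.39 in the controls and 10.19 and 9.51 with embelin. The embelin arrays lay above both controls, but 1 of them only barely. The log2 fold change was 0.45 (standard error 0.29, 95% interval -0.33 to 1.23, adjusted p = 0.491 from limma), an interval that holds both 0 and a 2-fold rise.

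The other 4 BCL2L11 probes were too dim to test. P154426 was not well above background on any array, at log2 signals of 2.87 to 3.79. P309996 was so only on embelin replicate 2, where it read 4.75, and P309991 and P425954 only on control replicate 1 and embelin replicate 2, the arrays with the lower background. P425954 read 4.58 and 4.11 in the controls and 4.95 and 5.60 with embelin, and P309991 read 5.26 and 5.12 against 5.33 and 5.65. These last probes share a run of 46 bases and so are not separate readings of the gene.

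BMF, whose product is held at motor complexes of the cytoskeleton until released, read 6.33 and 6.50 in the controls and 6.80 and 7.08 with embelin. The groups did not overlap, yet the gap was small and the log2 fold change was 0.52 (standard error 0.20, 95% interval -0.03 to 1.07, adjusted p = 0.301 from limma).

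HRK, best known from neurons, had 2 tested probes. P25194 read 6.23 and 7.96 in the controls and 7.09 and 6.73 with embelin. The 2 controls lay on either side of both embelin arrays, and the log2 fold change of -0.18 had a 95% interval of -1.88 to 1.51 (adjusted p from limma 0.922), too wide to tell a rise from a fall. Without control replicate 1 the change was -1.05 with an unadjusted p under 0.05 by limma, and without control replicate 2 it was 0.68. P52882, the probe with the BH3 core and 76.7% G and C, read 9.57 and 10.07 against 10.11 and 9.67, with a log2 fold change of 0.07 (95% interval -0.69 to 0.83).

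BID and BAD are controlled largely at the level of the protein, BID by caspase cleavage and BAD by phosphorylation. BID read 10.47 and 10.74 against 10.48 and 10.64 at P154929, and 13.79 and 13.73 against 13.89 and 13.87 at P187948. The log2 fold changes were -0.05 (95% interval -0.59 to 0.50) and 0.12 (95% interval -0.35 to 0.59). BAD read 13.07 and 13.40 against 13.00 and 13.16, with a log2 fold change of -0.15 (95% interval -0.73 to 0.42). The groups overlapped for all but P187948, where the embelin values lay just above the controls. None of these intervals reached 2-fold in either direction.

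Since 1 array of each group had the noisier background, each change was also read between arrays of like background. For the 7 probes past the 2-fold threshold, embelin replicate 2 minus control replicate 1 ranged from 1.90 to 2.81 on the log2 scale, and embelin replicate 1 minus control replicate 2, the noisier pair, from 1.65 to 2.90. For BBC3 P90189 the values were -0.16 and -0.05.

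Transcripts of the proteins that BH3-only proteins bind were read in the same way. Of 8 pro-survival and effector genes with a tested probe, 0 were called after adjustment. MCL1 and BOK passed the 2-fold threshold upward, against 5.19% of all genes tested, and 0 passed it downward, against 4.69%. MCL1, the main partner of NOXA, had log2 fold changes of 2.06, 1.08 and 1.19 at its 3 probes (adjusted p = 0.0553, 0.116 and 0.0979 from limma), and no control value of a probe lay above an embelin value. BCL2 was at -0.24, and BCL2L1, which encodes BCL-XL, was at -0.24 and 0.20. BAX was at 0.22, -0.03 and 0.28 at its 3 probes and BAK1 at -0.32. None of these 7 changes passed a threshold. BOK, at 1.13 (adjusted p = 0.108 from limma), was named only after its value was seen.

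Of 10 further genes whose products have been described with a BH3 or BH3-like segment, 0 passed either threshold, and the median log2 fold change over their probes was 0.18. Of 24 genes for binding partners and modifiers of BH3-only proteins, 0 were called after adjustment. In this list 2, BTRC and PIM2, passed the 2-fold threshold downward, against 4.69% of all genes tested. BTRC had a log2 fold change of -1.01 at 1 of its 2 probes and 0.22 at the other. PIM2, a kinase that phosphorylates BAD, was at -1.04, -0.99 and -0.88 at its probes (adjusted p = 0.246, 0.160 and 0.258 from limma). Only the first of these passed 2-fold. Both were named after their values were seen.

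Of 19 genes in a list of known regulators of BH3-only genes, mostly transcription factors, 5 were called higher, against 0.997% of all genes tested. Past the 2-fold threshold upward were 8, against 5.19%. In either count 0 were lower, against 0.329% and 4.69%. The 3 largest among the calls were ATF3, DDIT3 and FOS. DDIT3, which encodes CHOP, read 7.21 and 7.28 in the controls and 11.55 and 11.42 with embelin, in log2 signal, an 18.9-fold rise (adjusted p = 0.0255 from limma). ATF3 rose by 5.71 on the log2 scale at the probe measured in both groups, and FOS by 2.43. ATF4, which is known to act upstream of ATF3 and DDIT3 and is controlled largely at translation, was at 0.52 and 0.69 at its 2 probes (adjusted p = 0.245 and 0.194 from limma).

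Other regulators had transcripts that were not called. HIF1A was at -0.61 (adjusted p = 0.193 from limma). FOXO3 was at 1.03 and 1.17 at its 2 probes (adjusted p = 0.249 and 0.24 from limma). The products of both are known to be controlled largely after transcription, and no protein was measured on these arrays.

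Target lists of the regulators were counted in the same way and were also chosen with earlier results of these data known. Beside their counts stand 0.997% of all genes tested called higher, 5.19% past 2-fold upward and 4.69% downward. Of 20 HIF targets other than the members, 13 were called higher and 19 passed the 2-fold threshold upward, with a median log2 fold change of 2.23 over their probes. LDHA, named after its values were seen, was the one that did not pass, at 0.16 to 0.56 over its 3 probes. The largest calls were HK2, a hexokinase gene, at 5.77 at the probe measured in both groups, NDRG1 at 4.69 and ANKRD37 at 4.10.

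Of 22 ATF4 and CHOP targets, 7 were called higher and 10 passed the 2-fold threshold upward, with a median of 0.70 and 0 lower. After ATF3, the largest were STC2 at 5.25 and PPP1R15A at 3.27. Of 12 FOXO targets, 3 were called higher (KLF2 at 3.85, KLF6 at 2.80 and CCNG2 at 1.98 at their brightest probes), 6 passed the 2-fold threshold upward and 1 downward, and the median was 1.43 (0.72 with normexp background correction and 0.85 with dim probes left in). Some genes stand in more than 1 list, ATF3 among them. These lists describe what moved in the same samples, and which input acted on the BH3-only genes was not tested.

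**Figure D4:**
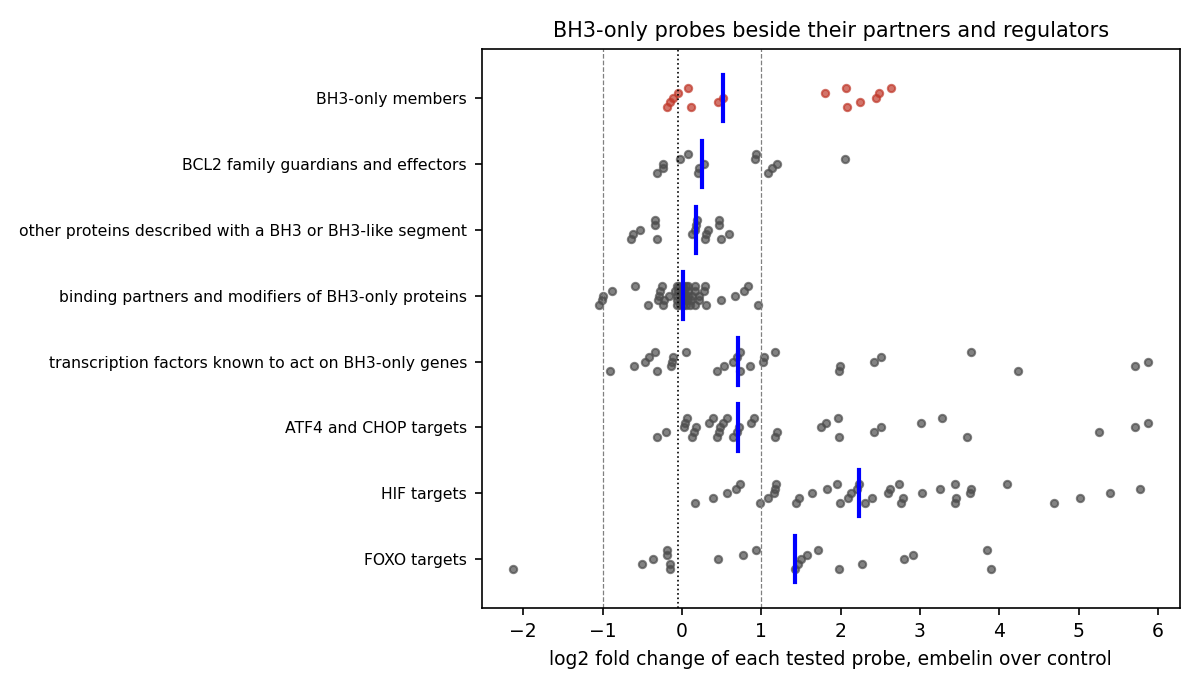
Log2 fold change of embelin over control (horizontal axis) of each tested probe of the BH3-only genes (red) and of the lists of their partners, regulators and regulators' targets (grey), with blue bars for the medians, a dotted line for the median of all probes tested and dashed lines for 2-fold. The BH3-only probes form 2 clumps, 8 between -0.18 and 0.52 and 7 between 1.80 and 2.63, and the HIF targets have the highest median (2.23).

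The 250 bases before the annotated start were read for 8 of the 10 genes from RefSeq promoter windows (GRCh38.p14). BIK and BNIP3L were not matched. Motifs were searched on both strands, and shares are over 35116 windows of the same length. BNIP3 was picked as the example with its change known. Whether the letters marked below had a part in that change was not tested. The stretch lies at chr10:131981998-131982107 on the minus strand, 184 to 75 bases before the start, and capitals mark where the hypoxia response core ACGTG was matched on both strands, overlapping itself.
BNIP3: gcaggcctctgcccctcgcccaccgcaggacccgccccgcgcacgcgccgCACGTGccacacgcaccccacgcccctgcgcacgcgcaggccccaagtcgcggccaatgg
This core was found for 3 of the 8 genes (BNIP3, BBC3 and, in 2 of its 5 windows, BID) and in 18.5% of all windows. The 2 BID windows overlap and hold the same match. The core was thus present both in genes that rose and in one that did not. It was not found for PMAIP1, which passed the 2-fold threshold upward. For this and the motifs below, a gene counted if any of its windows matched. The shares are per window, so counts and shares are not directly comparable. The FOXO core GTAAACA was found for BCL2L11 alone (2.98% of all windows), and the C/EBP-ATF composite TGATGNAAN for HRK alone (3.13%). The AP-1 site TGANTCA was found for BBC3 alone (6.57%). The GC box GGGCGG was found for 7 of the 8 genes (42.6%). A match shows only that these letters stand in the window, and its absence says nothing of sites elsewhere.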

How the data were processed

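Gene expression was measured on single-colour (Cy3) oligonucleotide arrays in 4 A549 samples, 2 per group, with groups taken from the labels. The authors deposited scanner intensities written by Agilent Feature Extraction 10.7.3.1, the version the file headers name, after background subtraction and detrending but without normalization between arrays. These intensities were shifted to a common 75th percentile, as the study's methods name, with a floor of 1, and log2 was taken. Spots flagged as outliers were left out, 47 to 743 per array, and remaining replicate spots were averaged. No spot was saturated. Probes entered the test where both arrays of either group were well above background. Embelin was compared with control by limma 3.58.1 in R 4.3.3, with the groups as the design and Benjamini-Hochberg adjustment over all kept probes, and changes at other probes of a gene were compared with its brightest by limma on the differences within an array. The pooled SD had a median of 0.23 (log2), and precision is limited by the number of arrays. The fit was also run on simulated data whose spread was drawn from the fitted model, with no effect of array. That run says nothing of how far the calls depend on single arrays.

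Gene names came from the RefSeq accession of a probe where it matched a current table (28595 of 50238 probes), otherwise from the files. The genes named were all members, at most the 3 largest calls in each pathway list, and fixed regulators and partners (DDIT3, ATF4, ATF3, HIF1A, FOXO3, MCL1, BCL2L1, BCL2, BAX and BAK1). BOK, BTRC, PIM2, LDHA and the marker genes were named outside the rule. A few genes and 1 list under the rule are left unnamed, and counts still include them. The members and lists were chosen with earlier results of these data known. Alternatives were normexp (offset 50), quantile normalization, the deposited table, other filters, the methods' t-test, limma's trend and robust options, blocks, 1 probe per gene, outlier spots kept, and leaving out each array.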

Additional observations from a re-analysis of the deposited data

How the results depend on the processing

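The 7 raised member probes kept their direction under every alternative run, and 5 member genes passed the 2-fold threshold upward in all of them except with 1 probe per gene, where the BBC3 probe chosen was P90189 and 4 did. The adjusted calls were less stable. The 4 member genes called higher became 2 with the deposited table or with outlier spots kept, 3 with quantile normalization, 5 with normexp, with all 4 arrays required above background or with limma's trend and robust options, and 0 with dim probes left in, by the methods' t-test, with a replicate block, with the arrays' background as a block (added after seeing the data), or with any 1 array left out (0 to 0). With 1 array left in a group, its spread is assumed to be that of the other group. Over all probes, the calls (217 higher and 65 lower) were 541 and 278 with normexp, 132 and 26 with the deposited table, 476 and 292 with all 4 arrays required, 743 and 553 with trend and robust, 143 and 27 with outlier spots kept, 163 and 31 with quantile normalization, 221 and 99 with 1 probe per gene, and 0 and 0 with no filter, the methods' t-test, either block or any 1 array left out (0 to 0).

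Over all probes, those past 2-fold with an unadjusted p under 0.05 (1198 higher, 987 lower) were 785 and 467 with normexp and 784 and 608 by the methods' t-test, 753 higher with 1 probe per gene, and 1056 to 1690 higher and 761 to 1538 lower with 1 array left out. Member genes past that threshold downward were 0, and 0 to 1 with 1 array left out (HRK, without control replicate 1). The probe pairs past it (187) were 109 with normexp, 313 with the replicate block, and 184 to 576 with 1 array left out, the 2 of BBC3 among them each time. Pathway list genes past it downward (4) were 1 with normexp, and 2 to 4 with 1 array left out (2 without embelin replicate 1, a setting added after seeing the data).

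Small changes turned sign. With 1 array left out, the log2 fold change ranged from -0.31 to 0.10 for BBC3 P90189, from -1.05 to 0.68 for HRK P25194, from -0.18 to 0.32 for HRK P52882, from -0.18 to 0.091 for BID P154929 and from -0.32 to 0.016 for BAD. The difference between probes ranged from -0.33 to 0.0018 for BID, from -0.039 to 0.045 for BNIP3L (-0.0058 with normexp) and from -0.88 to 0.36 for HRK. The median of the list of partners and modifiers was -0.0031 with quantile normalization. Deviations of same-numbered samples correlated at 0.21 over 25631 probes, and 2 pairs are too few to say that the numbers pair the samples. Where a cause is not plain from the setting, the cause was not tested.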
